A study of Mus musculus with 18 samples.

Results

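The genes described here are 36 genes of DNA replication and mitosis, measured in single cells of mouse embryos at E8.5, when organs begin to form. They were taken by symbol from the 31053 mouse genes of the count tables and divided by known role into 15 replication members and 21 mitosis members. Each library was labelled as 1 embryo on a 129S4/SvJae background. The groups were 7 wild-type (WT) embryos and libraries labelled as null for 1 DNA methyltransferase gene: 3 Dnmt1 KO, 4 Dnmt3a KO and 4 Dnmt3b KO. According to the study's methods, the mutants came from natural matings of heterozygous parents and the WT embryos from the same crosses, but the labels do not say which WT embryo belongs to which cross. A knockout of this kind lacks the enzyme in every cell of the embryo, extraembryonic tissues included.

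Before a cell divides it must copy its genome once. In G1, Cdc6 and Cdt1 load the ring-shaped Mcm2-7 helicase onto origins, and in S phase the helicase is activated with the GINS complex while Pcna clamps the polymerases to the template and ribonucleotide reductase and thymidylate synthase supply nucleotides. Cyclin B with Cdk1 then drives entry into mitosis, where Aurora and Polo-like kinases, centromere proteins and spindle proteins align and part the chromosomes. Dnmt1 is itself a replication-coupled enzyme, which copies methylation onto the new strand behind the fork, whereas Dnmt3a and Dnmt3b place methylation on unmethylated sites.

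The 18 libraries held 162336 barcodes, of which 109962 passed the filters, and 36484017 to 234447155 UMIs (unique molecular identifiers, each counting 1 captured transcript) per library. Median UMIs per kept cell ran from 4452.5 in Dnmt3a KO 2 to 59698 in Dnmt1 KO 1. Dnmt3b KO 1 and Dnmt3b KO 2 shared 12249 barcodes, 86.5% and 79.3% of their own, against at most 133 in any other of the 153 pairs of libraries, and 96.4% of the 7864 shared kept barcodes fell in the same cell class. Their summed counts nevertheless differed far beyond sampling noise, with a chi-square per degree of freedom of 439. The closest other pair of libraries within a group had 32.1, and the values of the remaining pairs are not given. The UMIs of the barcodes shared by Dnmt3b KO 1 and 2 had a Spearman correlation of 0.536. Because they share barcodes, these libraries were summed and counted as 1 sample, which leaves 3 Dnmt3b KO samples. Dnmt1 transcripts lay between 14.9 and 15.7 CPM (UMIs of a gene per 1000000 UMIs of the sample) in Dnmt1 KO against 83.1 to 115 CPM in WT, and Dnmt3a between 7.40 and 11.8 CPM in Dnmt3a KO against 23.1 to 35 CPM in WT. Dnmt3b ran from 54.2 to 68.3 CPM in the samples labelled Dnmt3b KO and from 35.3 to 87.3 CPM in WT, so its 3′ counts did not separate these groups, and Dnmt3a was also low in Dnmt3b KO 11 and 12, at 15.1 and 7.58 CPM, the latter inside the Dnmt3a KO range. The label of the Dnmt3b KO libraries could thus not be checked from these counts. By Y-linked genes, 1 of the 7 WT embryos was male, against all 3 Dnmt1 KO, all 4 Dnmt3a KO and all Dnmt3b KO samples but Dnmt3b KO 12.

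Promoters of 30 of the 36 members were in the RefSeq set (build GRCm38.p6), 12 of replication and 18 of mitosis members; Mcm4, Gins2, Ccne2, Ccna2, Aurkb and Tpx2 had no entry. Over the 250 bases before the start site, on both strands, the E2F letters TTCCCGC or TTTGGCGC stood in 5 of 12 replication promoters, in 0 of 18 mitosis promoters and in 4.23% of all 27025 promoters. The cell cycle homology region, CHR, read as TTTGAA or TTCGAA, stood in 2 replication and 8 mitosis promoters and in 17.4% of all. The CCAAT box stood in 8 replication and 16 mitosis promoters and in 34.5% of all, and the TATA letters TATAAA in no member promoter and in 13% of all. The median number of CpG sites, the target of DNA methylation, was 17.5 in replication promoters, 19 in mitosis promoters and 6 over all promoters. No methylation was measured in these libraries, and a match of letters is a description of the window only.

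The 200 bases before the start site are printed for 3 replication members (Rrm2, Mcm3 and Mcm6) and 3 mitosis members (Hmmr, Cenpf and Top2a), because Rrm2 and Mcm3 fell and Hmmr and Cenpf rose in Dnmt1 KO, while Mcm6 and Top2a carry the E2F and the CHR letters. Capitals mark the E2F, CHR and CCAAT letters on either strand, and each sequence is written 5′ to 3′ on the strand of its gene.
Rrm2 (chr12:24708054-24708253, plus strand): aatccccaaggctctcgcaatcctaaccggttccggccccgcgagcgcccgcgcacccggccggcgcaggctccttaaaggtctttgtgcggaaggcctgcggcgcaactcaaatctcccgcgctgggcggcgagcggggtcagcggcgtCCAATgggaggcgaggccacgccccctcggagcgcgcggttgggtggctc
Mcm3 (chr1:20820313-20820512, minus strand): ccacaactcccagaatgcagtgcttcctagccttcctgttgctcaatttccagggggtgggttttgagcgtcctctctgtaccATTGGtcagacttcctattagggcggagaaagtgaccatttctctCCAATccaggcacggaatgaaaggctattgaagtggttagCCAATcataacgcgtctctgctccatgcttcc
Mcm6 (chr1:128359706-128359905, minus strand): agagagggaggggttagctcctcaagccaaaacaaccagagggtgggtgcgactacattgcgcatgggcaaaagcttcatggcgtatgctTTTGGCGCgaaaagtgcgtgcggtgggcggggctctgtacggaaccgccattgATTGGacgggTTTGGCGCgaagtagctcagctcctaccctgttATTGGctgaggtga
Hmmr (chr11:40733438-40733637, minus strand): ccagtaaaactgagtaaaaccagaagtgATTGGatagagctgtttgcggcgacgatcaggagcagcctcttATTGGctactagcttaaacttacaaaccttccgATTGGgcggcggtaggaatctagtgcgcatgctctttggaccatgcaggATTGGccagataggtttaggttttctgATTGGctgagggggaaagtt
Cenpf (chr1:189688087-189688286, minus strand): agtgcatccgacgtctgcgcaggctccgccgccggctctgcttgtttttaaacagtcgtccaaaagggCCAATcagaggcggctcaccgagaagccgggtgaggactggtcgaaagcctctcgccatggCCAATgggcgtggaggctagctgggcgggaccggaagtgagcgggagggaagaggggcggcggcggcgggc
Top2a (chr11:99024190-99024389, minus strand): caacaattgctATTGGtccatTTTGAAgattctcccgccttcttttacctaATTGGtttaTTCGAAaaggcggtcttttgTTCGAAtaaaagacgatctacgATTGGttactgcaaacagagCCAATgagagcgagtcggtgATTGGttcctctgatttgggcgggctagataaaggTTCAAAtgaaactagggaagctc
Within these stretches Hmmr and Top2a each carried 5 CCAAT boxes and Mcm3 carried 3, Mcm6 carried 2 E2F matches, and Top2a carried 4 CHR matches. Rrm2, Mcm3, Hmmr and Cenpf carried neither E2F nor CHR letters.

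Levels in WT embryos were described first, over the 16 cell classes with at least 25 cells in at least 3 WT embryos. A class was named from its marker genes, so that gut stands for gut-like cells and likewise for the others. The member genes were kept out of the clustering. Extraembryonic (ExE) endoderm, the outer layer of the visceral yolk sac, stood lowest for 22 of the 36 members, 10 of replication and 12 of mitosis, and this count was 21 to 23 when each WT embryo was left out in turn. The share of all genes that stood lowest in this class is not given. Summed over the 15 replication members, ExE endoderm held 969 ± 90.5 CPM (SD, n = 7) and cardiomyocytes 1172 ± 98.9 CPM (SD, n = 7), against 2107 ± 165 CPM (SD, n = 7) in hindbrain and spinal cord. The ranges of the lowest class, 864 to 1157 CPM, and of the highest, 1883 to 2393 CPM, did not overlap, while ExE endoderm and cardiomyocytes overlapped. The 21 mitosis members spread less, from 2891 ± 158 CPM (SD, n = 7) in ExE endoderm to 3952 ± 266 CPM (SD, n = 7) in endothelium, and the ranges of every pair of neighbours in this order overlapped. Median UMIs per WT cell were 14160 in ExE endoderm, 37900 in hindbrain and spinal cord and 8064 in endothelium. The part of depth in these levels was not tested.

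**Figure D1:**
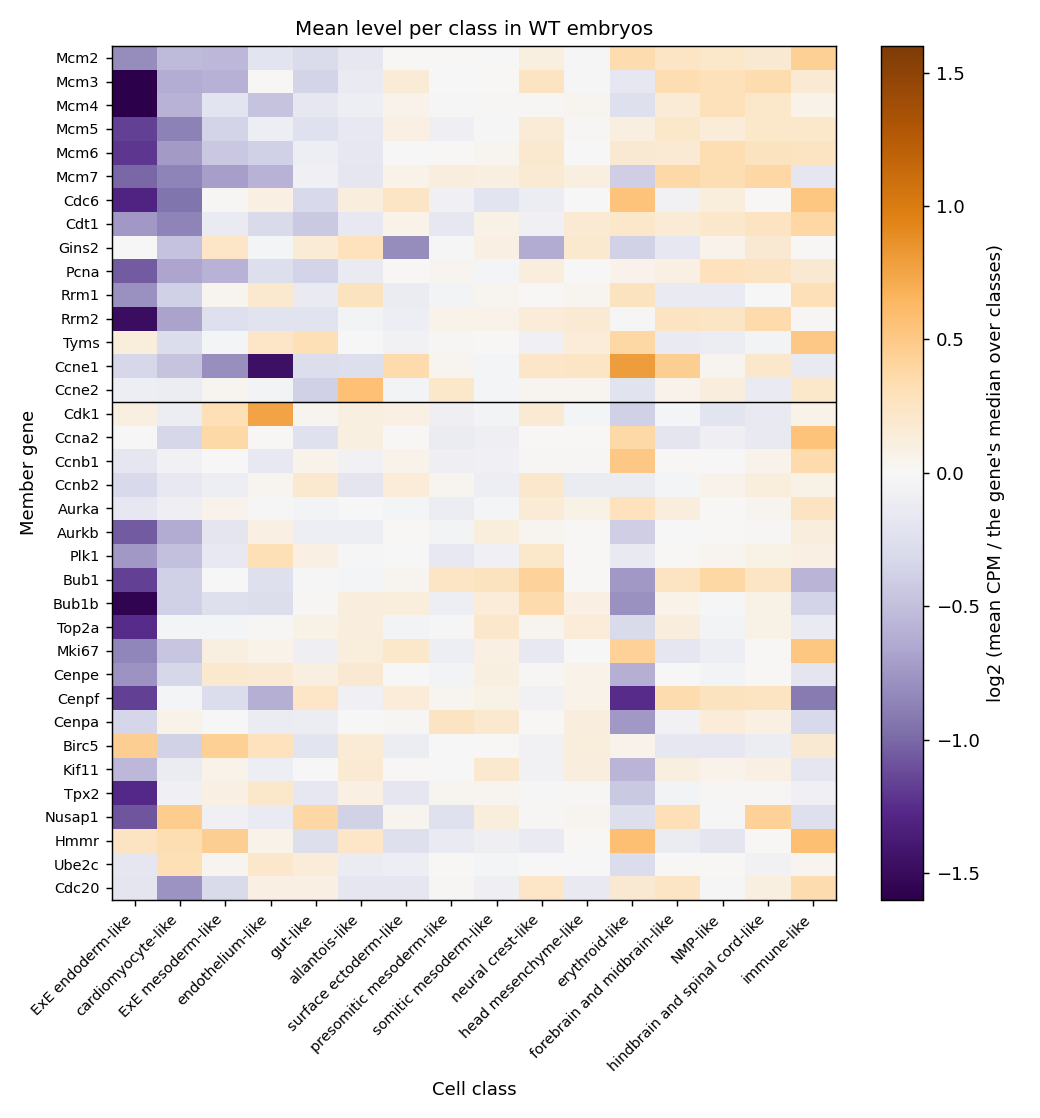
Mean level of each member (rows) in each cell class (columns) of WT embryos, as log2 of the mean CPM over the gene's median over classes; replication members stand above the line and mitosis members below it. ExE endoderm, at the left, is lowest for 22 of the 36 members, while Ccne1 is lowest in endothelium and Birc5 is highest in ExE endoderm.

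Some single members followed this order and others departed from it. Mcm4, a subunit of the Mcm2-7 ring, had the widest WT range of the Mcm genes together with Mcm3, from 35.3 ± 5.72 CPM (SD, n = 7) in ExE endoderm to 152 ± 17.4 CPM (SD, n = 7) in NMP, the neuromesodermal progenitors, a ratio of 4.31. Rrm2, the regulated subunit of ribonucleotide reductase, ran from 97.8 ± 13.3 CPM (SD, n = 7) in ExE endoderm to 351 ± 41.7 CPM (SD, n = 7) in hindbrain and spinal cord. Ccne1, cyclin E1 of the G1/S transition, had the widest ratio of the 36 members, 4.75, and its own order. It was lowest in endothelium at 37.6 ± 2.65 CPM (SD, n = 7), where its range of 32.4 to 40.3 CPM lay below that of ExE mesoderm, next in the order at 50.1 to 83.8 CPM, and it was highest in erythroid cells at 179 ± 21.8 CPM (SD, n = 7). Among mitosis members, Cenpf, a kinetochore protein, was lowest in erythroid cells at 131 ± 26.5 CPM (SD, n = 7), which overlapped ExE endoderm at 140.3 ± 22.8 CPM (SD, n = 7). Birc5, survivin of the chromosomal passenger complex, was the exception in ExE endoderm, where it was highest at 510.5 ± 43.1 CPM (SD, n = 7). Aurka was the flattest member, with a ratio of highest to lowest class of 1.37.

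In Dnmt1 KO embryos taken as a whole, 4 replication members fell and 4 mitosis members rose by the test used. Rrm2, Gins2, Ccne1 and Mcm3 were lower than in WT, and Hmmr, Cenpf, Cenpe and Plk1 were higher, by edgeR's quasi-likelihood test at an adjusted p under 0.05. These were 8 of 36 members called, against 36.7% of the 18762 genes tested. Of all genes 17.9% fell and 18.8% rose. The study's stricter rule, an adjusted p under 0.01 with at least a 2-fold change (1 on the log2 scale), called 0 of the 36 members by edgeR and 14.2% of all genes. At an unadjusted p under 0.05 the members numbered 12, and DESeq2 called 8 at an adjusted p under 0.05. No share of all genes is given for such counts, before adjustment or by DESeq2, here or below. Without Dnmt1 KO 1 or without Dnmt1 KO 2, edgeR called 5. The median log2 fold change was -0.22 over the 15 replication members, of which 12 were lower than in WT, and 0.11 over the 21 mitosis members, of which 14 were higher, beside 0.01 over all genes tested. In whole-embryo sums, fewer cells of a type and less RNA per cell cannot be told apart. The values printed below for called members are those that the test used. The share of all genes that lay apart from WT, in whole embryos or in classes, is not given.

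Summed per embryo, the replication members stood at 1302, 1365.5 and 1448 CPM in Dnmt1 KO, all below the lowest of the 7 WT embryos, which ran from 1501 CPM through a median of 1682 to 1876 CPM. The mitosis members stood at 3672, 3692 and 3728 CPM in Dnmt1 KO, inside the WT range of 3106 to 3912 CPM with its median of 3645 CPM. In Dnmt3a KO the replication sum ran from 1687 to 1793 CPM and in Dnmt3b KO from 1744 to 2092 CPM. The mitosis sum ran from 3201 to 3927 CPM and from 3344 to 3595 CPM in these groups, so that both sums overlapped WT.

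**Figure D2:**
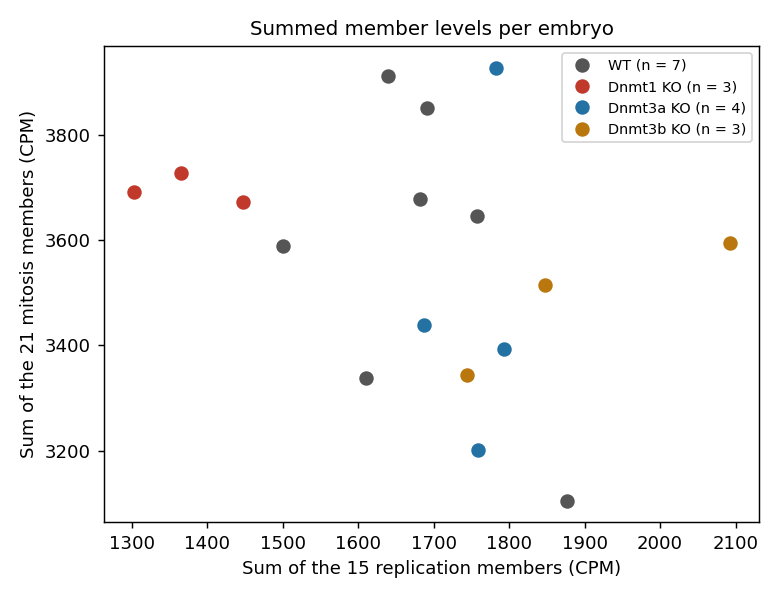
Sum of the 15 replication members (x axis, CPM) and of the 21 mitosis members (y axis, CPM) in each embryo, with Dnmt3b KO 1 and 2 as 1 point. The 3 Dnmt1 KO embryos lie at 1302 to 1448 CPM on the x axis, left of all other embryos, and within the WT range on the y axis.

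Among the 9 licensing and helicase genes, 2 fell and none rose in whole Dnmt1 KO embryos, beside 17.9% and 18.8% of all genes. Their log2 fold changes ran from -0.42 to 0.03. Gins2, a subunit of the GINS complex that activates the helicase, ranged in WT from 92.0 CPM through a median of 109 CPM to 115 CPM. It measured 81.4, 69.4 and 72.7 CPM in Dnmt1 KO 1, 2 and 3, below every WT embryo. Its log2 fold change was -0.42 ± 0.10 (SE; edgeR, adjusted p = 0.00413). Mcm3, a helicase subunit, ranged in WT from 137 through 155 to 172 CPM and measured 112, 110.5 and 127 CPM in Dnmt1 KO, again below every WT embryo. Its log2 fold change was -0.35 ± 0.10 (SE; edgeR, adjusted p = 0.0131). The other Mcm genes did not pass the test, with log2 fold changes of -0.22 for Mcm2, 0.03 for Mcm4, -0.25 for Mcm5, -0.02 for Mcm6 and -0.22 for Mcm7. The loaders Cdc6 and Cdt1 were at -0.12 and -0.14.

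At the fork and in nucleotide supply, 1 of 4 members fell, beside 17.9% of all genes. Rrm2 ranged in WT from 217 CPM through a median of 250.2 CPM to 277 CPM, and measured 129, 159.7 and 168 CPM in Dnmt1 KO 1, 2 and 3, without overlap. Its log2 fold change of -0.65 ± 0.13 (SE; edgeR, adjusted p = 0.00089) was the largest decrease of any member. Its partner Rrm1, the large subunit of the same enzyme, was at 0.01 ± 0.11 (SE), Pcna at -0.16 ± 0.12 and Tyms, thymidylate synthase, at 0.12 ± 0.12, none past the test. Of the G1/S cyclins, Ccne1 ranged in WT from 97.7 through 104 to 121 CPM and measured 65.0, 96.4 and 71.8 CPM in Dnmt1 KO. All 3 lay below WT, Dnmt1 KO 2 only narrowly, and the log2 fold change was -0.39 ± 0.13 (SE; edgeR, adjusted p = 0.0215). Without Dnmt1 KO 1 or Dnmt1 KO 3 the call of Ccne1 was lost (adjusted p = 0.164 and 0.0744, edgeR), and that of Mcm3 without Dnmt1 KO 1 or 2 (0.0744 and 0.0633). Ccne2 was at -0.29 ± 0.22 (SE) and did not pass. Counts of Tyms and Pcna are uncertain because processed pseudogenes of both are annotated and can share reads with them.

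Among the mitosis members, Hmmr had the smallest p of all 36. Hmmr, a spindle assembly protein that binds hyaluronan and microtubules, ranged in WT from 114 CPM through a median of 131 CPM to 143 CPM. It measured 178, 187 and 160.1 CPM in Dnmt1 KO 1, 2 and 3, above every WT embryo. The log2 fold change was 0.49 ± 0.08 (SE; edgeR, adjusted p = 0.000126). The other spindle members were also higher without passing the test, Kif11 by 0.24, Tpx2 by 0.13 and Nusap1 by 0.32 on the log2 scale.

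Of the 6 chromosome and centromere members, 2 rose, beside 18.8% of all genes. Cenpf ranged in WT from 202 through 296 to 346 CPM and measured 351, 355 and 379 CPM in Dnmt1 KO, above every WT embryo but by little at the near ends. Its log2 fold change was 0.46 ± 0.11 (SE; edgeR, adjusted p = 0.00501). Cenpe, the kinesin of the kinetochore, ranged in WT from 78.9 through 118 to 136 CPM and measured 144, 143 and 128 CPM in Dnmt1 KO. The groups overlapped, and the log2 fold change was 0.37 ± 0.13 (SE; edgeR, adjusted p = 0.0293). The lowest 2 WT values of both genes came from WT 1 and WT 2, at 202 and 206 CPM for Cenpf and at 78.9 and 96.5 CPM for Cenpe. The reads of WT 1 were assigned with human and mouse genomes together (the combined reference) and WT 2 had the fewest UMIs per cell of the WT libraries at the median, and the part of either in these values was not tested beyond the refits described below. Mki67, the proliferation antigen Ki-67, was at 0.37 ± 0.15 (SE; edgeR, adjusted p = 0.0657), Top2a, the topoisomerase that untangles sister chromatids, at 0.11, Cenpa, the centromeric histone, at -0.05 and Birc5 at 0.15.

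The kinases and checkpoint genes moved little. Plk1, the Polo-like kinase, ranged in WT from 57.7 through 69.8 to 78.1 CPM and measured 75.2, 81.9 and 77.9 CPM in Dnmt1 KO, so that 1 of 3 lay above WT. It rose by 0.24 ± 0.08 on the log2 scale (SE; edgeR, adjusted p = 0.0233). The call of Plk1 was lost without Dnmt1 KO 2 or 3 (adjusted p = 0.145 and 0.0654, edgeR), and that of Cenpe without WT 2, Dnmt1 KO 1 or Dnmt1 KO 2 (0.055, 0.0873 and 0.132). Aurka was at -0.04, Aurkb at -0.15, and the checkpoint kinases Bub1 and Bub1b at -0.19 and 0.10, none called. The cyclins and their kinase, Cdk1, Ccna2, Ccnb1 and Ccnb2, were at -0.05, 0.11, 0.11 and 0.22, and the anaphase-promoting complex partners Ube2c and Cdc20 at -0.19 and -0.02, none called. Counts of Ccnb1 and Ccnb2 are uncertain because of annotated pseudogene copies.

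**Figure D3:**
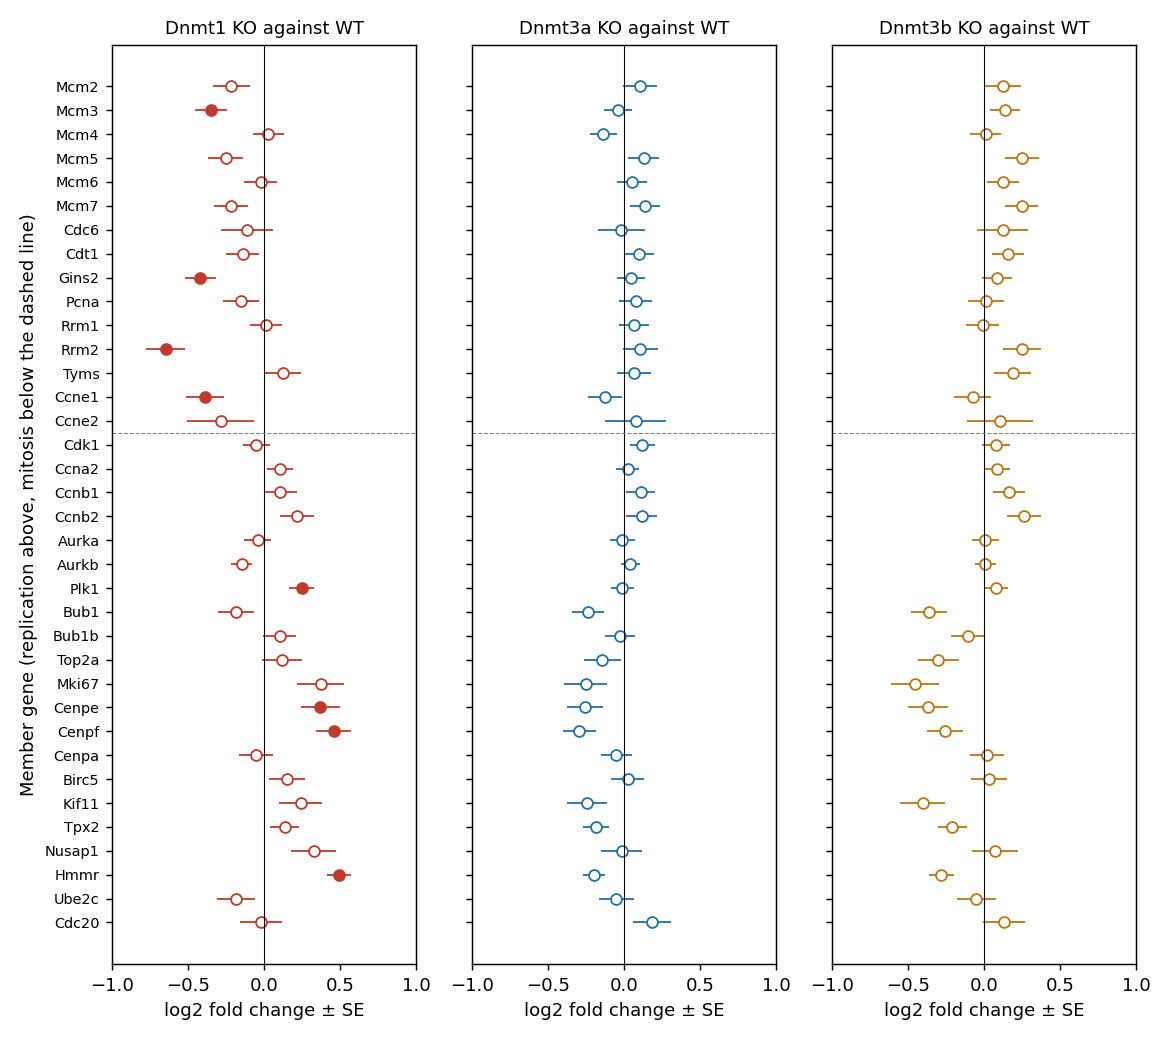
Log2 fold change of each member against WT in whole embryos, with its SE, for the 3 knockouts; filled points passed an adjusted p under 0.05. In Dnmt1 KO the 4 filled points above the dashed line are negative and the 4 below it are positive; the Dnmt3a KO and Dnmt3b KO panels have no filled point.

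**Figure D4:**
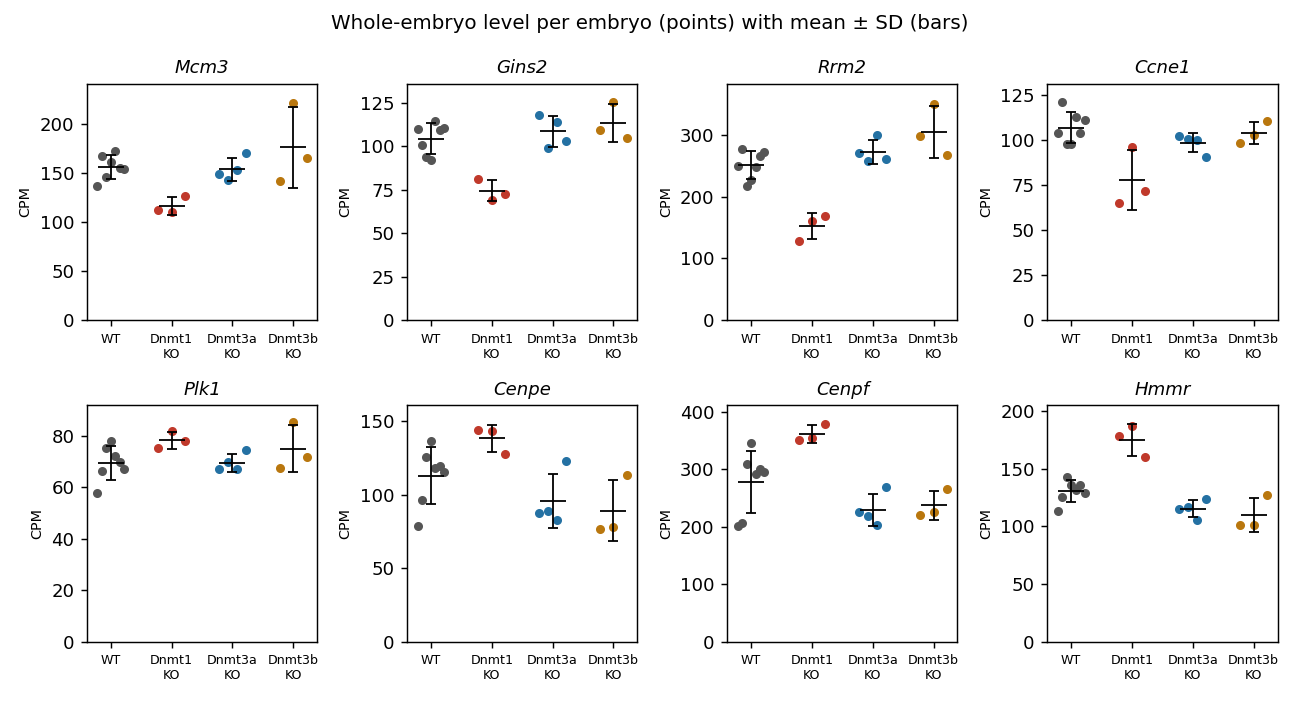
Level in CPM of the 8 members called in whole Dnmt1 KO embryos, 1 point per embryo, with mean ± SD per group. Rrm2, Gins2, Mcm3 and Ccne1 lie below and Hmmr and Cenpf above all 7 WT embryos in the 3 Dnmt1 KO embryos, while Cenpe and Plk1 overlap WT. These members were picked by the test on the same values, and the share of all genes that lie apart is not given.

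Sex and group were nearly confounded in this comparison, as WT 2 was the only male WT embryo and one of the 3 shallowest libraries. With a term for male embryos, 5 members were called, against 24.1% of all genes: Rrm2 at -0.69, Ccne1 at -0.57 and Pcna at -0.44 fell and Cenpf at 0.58 and Hmmr at 0.39 rose on the log2 scale (edgeR), while Mcm3, Gins2, Plk1 and Cenpe kept their sign and missed the threshold (adjusted p = 0.148, 0.0654, 0.0533 and 0.253). Weighting the 5 classes found in both groups by their WT shares gave log2 fold changes of -0.85 for Rrm2, -0.70 for Ccne1, -0.53 for Gins2, -0.28 for Mcm3, 0.63 for Cenpf, 0.53 for Cenpe, 0.43 for Hmmr and 0.29 for Plk1, with no test. The classes left out of this weighting hold most WT cell types. Whole Dnmt1 KO embryos differed in makeup: ExE ectoderm took 4.63% to 31.0% and epiblast 9.59% to 16.5% of their cells, against at most 1.54% and 0.233% in WT. Hindbrain and spinal cord, the class with the highest replication sum in WT, took 3.04% to 14.2% of WT cells, and 0 cells were given this name in Dnmt1 KO, as for neural crest and head mesenchyme, while NMP and forebrain and midbrain had at most 1 named cell in any Dnmt1 KO embryo. Cells left unnamed made up 6.49% to 23.0% of the WT embryos and 10.4%, 14.8% and 45.8% of the Dnmt1 KO embryos, so a count of 0 named cells does not show that a cell type was absent. The part of this makeup in the whole-embryo values cannot be told apart from a change within cells.

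Within cell classes, 5 classes had at least 25 cells in all 3 Dnmt1 KO embryos and at least 3 WT embryos: ExE endoderm, ExE mesoderm, endothelium, gut and immune cells. Their medians differed by class. The median log2 fold change of the replication members ran from -0.33 in gut, with 14 of 15 lower, to -0.02 in ExE endoderm, with 8 of 15 lower, and that of the mitosis members from 0.04 in immune cells, with 11 of 21 higher, to 0.29 in endothelium, with 16 of 21 higher. Of the 180 pairs of member and class, 55 were called by edgeR, against 27.1% of all pairs of gene and class. Replication members fell in 19 of 75 pairs and rose in 1, and mitosis members rose in 30 of 105 pairs and fell in 5, while over all genes 13.7% of pairs fell and 13.4% rose. Of the members, only Ccne1 was called in both directions. The 11 members called in no class were Mcm2, Mcm4, Mcm6, Cdc6, Rrm1, Tyms, Ccne2, Aurkb, Cenpa, Birc5 and Cdc20. With the term for male embryos 24 pairs were called, against 15.8% of all pairs, 12 replication pairs that fell and 12 mitosis pairs that rose, and no pair in the other directions.

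By class, 13 of 36 members were called in ExE endoderm, against 26.8% of its genes, and 14 in ExE mesoderm, against 34.6%. In endothelium 11 were called, against 23.8% of genes, in gut 11 against 25%, and in immune cells 6 against 24.0%. The study's rule called 2 members in 1 class, Rrm2 and Ccne1 in gut, where it called 7.56% of genes. The main cluster of a class differed between the groups in ExE endoderm, ExE mesoderm and endothelium. In ExE endoderm 77.4% of Dnmt1 KO cells came from 1 cluster led by Pkd1l2, Apob and Cubn while 52.3% of WT cells came from another led by Apob, Cubn and Afp. In ExE mesoderm 87.2% of Dnmt1 KO cells came from a cluster led by Tdo2, Stard8 and Nrp1, and 37.0% of WT cells from one led by Postn, Col1a1 and Prss35. In endothelium 78.7% of Dnmt1 KO cells came from a cluster led by Lyve1, Gngt2 and Ctla2a and 53.8% of WT cells from one led by Cdh5, Cldn5 and Plvap. The median UMIs per endothelial cell were 4107 and 8064. In gut the same cluster was the main one in both groups. Immune cells were 1 cluster, but made up 5.49% to 7.72% of Dnmt1 KO embryos and 0.366% to 1.13% of WT embryos. The study also reports a minor developmental delay of its Dnmt1 KO embryos, so cells under the same class name may differ in stage between the groups. The part of these differences in the values below was not tested.

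Rrm2 fell in all 5 classes, and in 4 of them, without endothelium, under the term for male embryos. In gut it ranged in WT from 188 CPM through a median of 234 CPM to 273 CPM, and measured 95.1, 118 and 89.4 CPM in Dnmt1 KO 1, 2 and 3. The log2 fold change there was -1.1 ± 0.13 (SE; edgeR, adjusted p = 2.47e-06), a fold of 0.467. In immune cells it ranged in 5 WT embryos from 218 through 278 to 350.5 CPM and measured 148, 149 and 130.3 CPM in Dnmt1 KO (log2 fold change -0.85). In ExE mesoderm and ExE endoderm it changed by -0.87 and -0.72, and in endothelium, with 198, 153 and 142 CPM against 201 to 272 CPM, by -0.49 on the log2 scale. In every one of these classes the 3 Dnmt1 KO embryos lay below all WT embryos. The call in endothelium was also lost without Dnmt1 KO 2, without Dnmt1 KO 3 or without the 3 shallowest libraries (edgeR, adjusted p = 0.0597, 0.0685 and 0.0852).

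Ccne1 was called in all 5 classes but not in 1 direction. It fell in gut, where it ranged in WT from 71.1 through 84.5 to 109.6 CPM and measured 30.8, 42.2 and 42.9 CPM in Dnmt1 KO, a log2 fold change of -1.02 ± 0.14 (SE; edgeR, adjusted p = 2.87e-05). It also fell in immune cells by 0.98, in ExE endoderm by 0.85 and in ExE mesoderm by 0.59 on the log2 scale. In endothelium, its lowest class in WT, it ranged in WT from 32.4 through 37.5 to 40.3 CPM and measured 73.6, 41.8 and 45.5 CPM in Dnmt1 KO 1, 2 and 3. All 3 lay above WT, and it rose by 0.58 ± 0.15 on the log2 scale (SE; edgeR, adjusted p = 0.00712). The highest value came from Dnmt1 KO 1, with 37 cells, and without this embryo the log2 fold change was 0.31 (edgeR, adjusted p = 0.224), and with the term for male embryos it was 0.39 (adjusted p = 0.207). Gins2 fell in 4 classes, by 0.53 in ExE endoderm, 0.31 in ExE mesoderm, 0.41 in endothelium and 0.62 in gut on the log2 scale, and was at -0.16 in immune cells without passing the test. In ExE mesoderm and endothelium its call was lost without Dnmt1 KO 2, without Dnmt1 KO 3 or with the term for male embryos. In endothelium it was also lost with samples thinned to the smallest library, at -0.15 on the log2 scale (edgeR, adjusted p = 0.553).

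Of the other replication members, 5 fell in 1 or 2 classes. In gut, Mcm3, Mcm5, Mcm7 and Pcna fell by 0.33, 0.41, 0.37 and 0.40 on the log2 scale, and gut was the class in which 14 of the 15 replication members were lower than in WT. Cdt1 fell in ExE mesoderm by 0.30 and in endothelium by 0.56 on the log2 scale. Under the term for male embryos Mcm7 and Pcna were called in gut, and the calls of Mcm3, Mcm5 and Cdt1 were lost. The summed replication members in gut stood at 1128 ± 51.6 CPM (SD, n = 3) in Dnmt1 KO and 1619 ± 102 CPM (SD, n = 7) in WT, from 118 and 1999 cells.

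Cenpf and Cenpe rose in all 5 classes. Under the term for male embryos Cenpf was called in ExE endoderm, ExE mesoderm and endothelium and Cenpe in ExE endoderm only. In ExE endoderm, Cenpf ranged in WT from 107 CPM through a median of 141 CPM to 171 CPM, and measured 252, 234 and 242 CPM in Dnmt1 KO. The log2 fold change was 0.80 ± 0.11 (SE; edgeR, adjusted p = 4.89e-05), a fold of 1.74, and the groups did not overlap. In ExE mesoderm, where Cenpf measured 398, 395 and 388 CPM against 206 to 319.5 CPM in WT, the log2 fold change was 0.70, and in endothelium, gut and immune cells it was 0.76, 0.57 and 0.70. The Cenpf groups overlapped in gut, at 549, 492 and 467 CPM in Dnmt1 KO against 318 to 490 CPM in WT. Cenpe measured 116, 114 and 102 CPM in ExE endoderm against 49.5 to 93.8 CPM in WT (log2 fold change 0.63). It changed by 0.34 in ExE mesoderm, 0.64 in endothelium, 0.71 in gut and 0.52 in immune cells. The Cenpe groups overlapped in ExE mesoderm, endothelium and immune cells. Its call was lost in ExE mesoderm without WT 1, 2, 6 or 7 or any 1 Dnmt1 KO embryo, in immune cells without WT 7, Dnmt1 KO 1 or Dnmt1 KO 3, and in endothelium without Dnmt1 KO 2.

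Further mitosis members rose in up to 3 classes. Under the term for male embryos Mki67, Nusap1, Bub1, Kif11 and Ccnb2 were called in no class, Top2a was called only in immune cells, Hmmr, Plk1 and Ccnb1 only in endothelium, Bub1b in ExE mesoderm and endothelium and Tpx2 in ExE endoderm. Cenpa, called in no class without that term, was called with it in endothelium at 0.66 on the log2 scale (edgeR, adjusted p = 0.00361). Without that term, Mki67 rose in ExE endoderm, ExE mesoderm and gut (0.56, 0.52 and 0.71 on the log2 scale), Top2a in ExE endoderm, endothelium and immune cells (0.49, 0.52 and 0.55), and Hmmr in ExE endoderm, endothelium and gut (0.44, 0.70 and 0.65). Nusap1, which bundles spindle microtubules, rose in ExE endoderm and ExE mesoderm (0.76 and 0.47). Bub1b rose in ExE mesoderm and endothelium (0.36 and 0.52) and Plk1 in ExE endoderm and endothelium (0.41 and 0.46). Bub1, Kif11 and Tpx2 were each called in 1 class, ExE endoderm, at 0.37, 0.44 and 0.45, although Kif11 was at 0.53 in endothelium without passing the test. Ccnb1 rose in endothelium by 0.51 and Ccnb2 in ExE mesoderm by 0.29 on the log2 scale. The mitosis members that fell were Cdk1, Aurka and Ube2c in ExE mesoderm (-0.27, -0.38 and -0.39) and Ccna2 in ExE mesoderm and immune cells (-0.21 and -0.43). None of these 5 falls was called by edgeR under the term for male embryos.

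**Figure D5:**
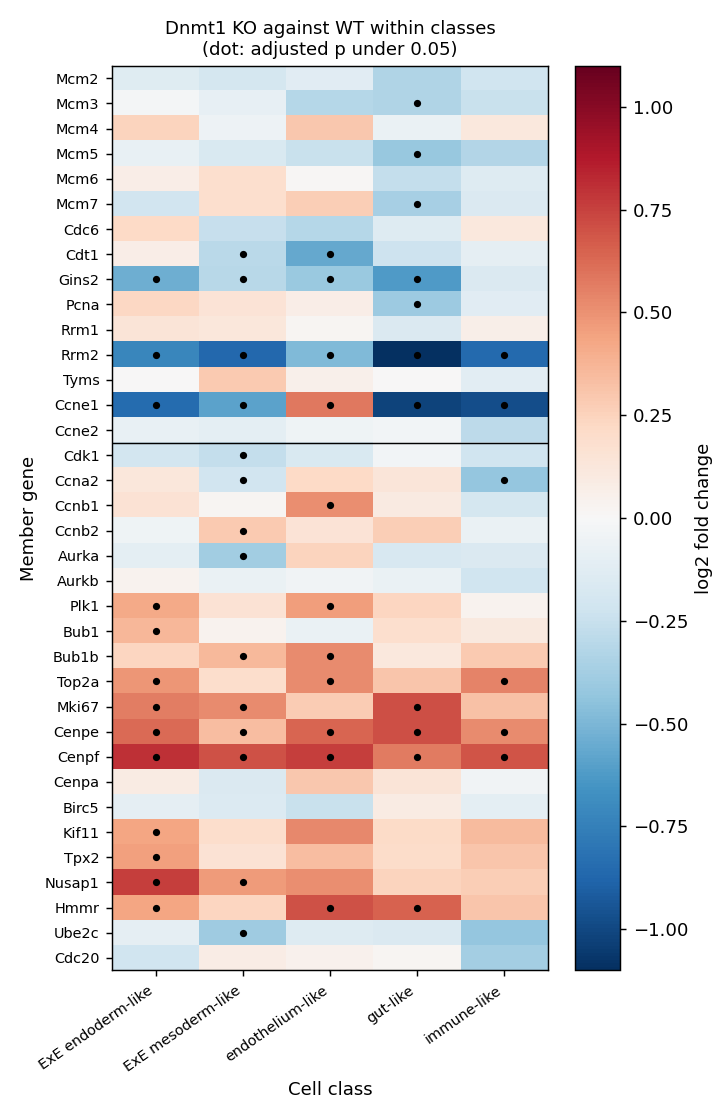
Log2 fold change of each member (rows) in Dnmt1 KO against WT within 5 cell classes (columns), with a dot where the adjusted p was under 0.05. Rrm2 is negative and Cenpe and Cenpf positive in all 5 classes, and Ccne1 is negative in 4 classes and positive in endothelium.

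Whether the effect of Dnmt1 KO differed between classes was tested directly as an interaction. Between ExE mesoderm and ExE endoderm, the effect differed for 13 of 36 members (edgeR), against 17.5% of 14480 genes. For 10 of them the effect was lower in ExE mesoderm: Ccna2 by 0.36, Top2a and Tpx2 by 0.32, Bub1 by 0.35, Cenpe by 0.32, Aurka by 0.29, Cenpa by 0.29, Kif11 by 0.26, Cdt1 by 0.38 and Cdc6 by 0.51 on the log2 scale, while for Mcm7, Tyms and Gins2 it was higher, by 0.36, 0.27 and 0.20. With all samples thinned to the smallest library 3 members were called, and 4 were called without Dnmt1 KO 2. Between endothelium and gut, the effect differed for 6 of 36 members, against 16.7% of 13786 genes. Ccne1 had the largest difference at 1.58 ± 0.23 (SE; edgeR, adjusted p = 3.09e-05), from 0.58 in endothelium and -1.02 in gut. Mcm7, Rrm2, Pcna and Mcm4 were also higher in endothelium relative to gut, by 0.64, 0.64, 0.46 and 0.37, and Birc5 was lower, by 0.33 on the log2 scale. Without Dnmt1 KO 1, 4 members were called. This pair of classes was chosen after the sign of Ccne1 had been seen.

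Per cell, the members were too sparse to be called singly, so their UMIs were summed per cell after thinning every cell to 3000 UMIs, which left out 997 of the Dnmt1 KO and 3979 of the WT cells. A sum of at least 10 replication UMIs was found in 3.51% ± 0.330 (SD, n = 3) of Dnmt1 KO cells and 7.29% ± 1.53 (SD, n = 7) of WT cells. The Dnmt1 KO embryos ran from 3.12% to 3.71% and the WT embryos from 4.51% to 8.92%, without overlap. Thinned to 1500 UMIs the groups overlapped, at 0% to 0.0683% and 0.0558% to 0.25%, and the difference of -3.78 percentage points became -0.137, at a depth where few cells of either group could reach 10. The mean number of replication UMIs per cell at that depth was 2.04 to 2.14 in Dnmt1 KO and 2.27 to 2.61 in WT, without overlap. Without thinning, where most cells passed 10, the shares were 85.6% ± 10.2 (SD, n = 3) and 86.6% ± 7.06 (SD, n = 7). At least 10 mitosis UMIs were found in 52.4% ± 2.44 (SD, n = 3) of Dnmt1 KO and 49.2% ± 5.37 (SD, n = 7) of WT cells, which overlapped. In gut the share with 10 replication UMIs was 0.794% ± 1.38 (SD, n = 3) in Dnmt1 KO, a value that rests on 1 cell of 1 embryo, and 7.24% ± 3.50 (SD, n = 7) in WT. In Dnmt3a KO it was 8.11% ± 1.66 (SD, n = 4) and in Dnmt3b KO 12% ± 4.41 (SD, n = 3) of all cells. No test was made on these sums.

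In Dnmt3a KO no member was called over the whole embryo. By edgeR 0 of 36 passed, against 0.608% of all genes. Before adjustment 5 members were under 0.05, and 0 were called by DESeq2. The smallest p values belonged to mitosis members. Cenpf measured 225, 218, 204 and 269 CPM in Dnmt3a KO 1, 2, 13 and 14 against 202 to 346 CPM in WT (log2 fold change -0.30 ± 0.11, SE; edgeR, adjusted p = 0.342). Hmmr measured 115, 117, 106 and 124 CPM against 114 to 143 CPM in WT (-0.20 ± 0.07, SE; adjusted p = 0.355). Cenpe measured 87.5, 89.3, 82.6 and 123 CPM against 78.9 to 136 CPM in WT (-0.26 ± 0.12, SE; adjusted p = 0.497). All 3 groups of values overlapped WT, and Dnmt3a KO 14, one of the 2 libraries of the group not counted on the combined reference, was the highest for each. Over 16 classes, 0 of 576 pairs of member and class were called by edgeR or by DESeq2, against 0.439% of all pairs, and 40 had an unadjusted p under 0.05. The median log2 fold change over these pairs was 0.07 for replication members, with 174 of 240 pairs higher, and -0.05 for mitosis members, with 207 of 336 lower. The pairs repeat the same genes in the same embryos, so they are not independent, and no share of all genes is given beside them.

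In the samples labelled Dnmt3b KO, edgeR called 0 of 36 members in the embryo as a whole, against 3.78% of all genes. Before adjustment 11 members were under 0.05, and 1 member, Hmmr, was called by DESeq2. No share of all genes is given beside these counts. Hmmr measured 101, 101 and 127 CPM in Dnmt3b KO 11, 12 and the summed 1 and 2, against 114 to 143 CPM in WT (log2 fold change -0.28 ± 0.08, SE; edgeR, adjusted p = 0.066). Bub1 measured 51.2, 55.4 and 78.3 CPM against 56.2 to 88.7 CPM (-0.36 ± 0.12, SE; adjusted p = 0.112). Mki67 measured 83.1, 87.3 and 147 CPM against 104 to 173 CPM (-0.45 ± 0.16, SE; adjusted p = 0.136). In each, the summed sample lay inside the WT range and Dnmt3b KO 11 and 12 below it. Over 16 classes 2 of 576 pairs were called, against 1.58% of all pairs: in ExE mesoderm Mcm7 rose by 0.43 and Cenpe fell by 0.46 on the log2 scale (edgeR, adjusted p = 0.00883 and 0.0471). DESeq2 called 10 pairs.

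These Dnmt3b KO counts rested on the summed sample. Without it, 6 members were called over the whole embryo, all mitosis members that fell: Mki67 by 0.73, Kif11 by 0.63, Cenpe by 0.55, Bub1 by 0.54, Top2a by 0.53 and Hmmr by 0.37 on the log2 scale (edgeR), against 6.77% of all genes. In classes, 62 of 576 pairs were then called, against 4.73% of all pairs, 42 mitosis pairs of 6 genes that fell, 6 mitosis pairs that rose and 14 replication pairs that rose. The 2 samples left, Dnmt3b KO 11 and 12, are those with Dnmt3a at 15.1 and 7.58 CPM. Dnmt3b KO 11 was counted on the combined reference and Dnmt3b KO 12 with a later version of Cell Ranger, and the part of any of these in the calls was not tested. Across the 16 classes, with the summed sample kept, the replication members were higher than in WT in 217 of 240 pairs, with a median log2 fold change of 0.17. These pairs repeat the same genes in the same samples, so they are not independent, and no share of all genes is given beside them. Without Dnmt3b KO 12 no pair was called by edgeR.

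Dnmt1 KO embryos were also set directly against the other knockouts. Against Dnmt3a KO, which was all male as well, 12 of 36 members were called by edgeR, against 35% of genes, with 5 replication members lower and 7 mitosis members higher. Rrm2 was lower by 0.76, Gins2 by 0.47, Mcm5 by 0.38, Mcm7 by 0.35 and Mcm3 by 0.31. Cenpf was higher by 0.75, Hmmr by 0.69, Cenpe by 0.63, Mki67 by 0.62, Kif11 by 0.48, Tpx2 by 0.32 and Plk1 by 0.26 on the log2 scale. For Cenpf, Hmmr and Cenpe the 3 Dnmt1 KO embryos, at 351 to 379, 160.1 to 187 and 128 to 144 CPM, lay above all 4 Dnmt3a KO embryos. These 3 members had been picked for their small p values in Dnmt3a KO against WT, where each was lower. The share of all genes that lay apart between these 2 knockouts is not given. Against Dnmt3b KO, 11 members were called, against 29.4% of genes, with 5 replication members lower and 6 mitosis members higher. Rrm2 was at -0.90 ± 0.15 (SE; edgeR, adjusted p = 0.000432), and Mki67 was higher by 0.82. Ccne1 was not called in either comparison, at -0.26 and -0.31. Without Dnmt3a KO 13 the first count was 6, and with a term for the combined reference it was 7. These comparisons share the Dnmt1 KO embryos with each other and with the comparison against WT.

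Other genes of the same processes were taken from lists of known function. Of 44 further replication genes, 8 fell and 2 rose in whole Dnmt1 KO embryos (edgeR), beside 17.9% and 18.8% of all genes. Tk1, thymidine kinase, fell by 0.73, Chaf1b, of the chromatin assembly factor, by 0.60 and Rpa2, of the single-strand binding complex, by 0.45 on the log2 scale. Dbf4, the activator of the Cdc7 kinase, rose by 0.34 on the log2 scale. Of 51 further mitosis genes, 14 rose and 1 fell, beside 18.8% and 17.9% of all genes. Anln, anillin of the cleavage furrow, rose by 0.78, Gtse1 by 0.63 and Cdkn3 by 0.57, and Cit, citron kinase, fell by 0.25 on the log2 scale. The median log2 fold changes of these lists were -0.13 and 0.15, beside 0.01 over all genes. Within the 5 classes of Dnmt1 KO, 42 of 220 replication pairs fell and 21 rose, and 62 of 255 mitosis pairs rose and 9 fell. Of all pairs 13.7% fell and 13.4% rose. No gene of either list was called by edgeR in whole Dnmt3a KO or Dnmt3b KO embryos, beside 0.608% and 3.78% of all genes. Before adjustment 1 and 3 replication genes and 6 and 11 mitosis genes were under 0.05 in these groups.

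Within the 5 classes of Dnmt1 KO, 25 cell cycle regulators fell in 32 of 124 pairs and rose in 15, beside 13.7% and 13.4% of all pairs. In whole Dnmt1 KO embryos 8 of the 25 fell and 3 rose, beside 17.9% and 18.8% of all genes. Cdc25b, a phosphatase that activates Cdk1, averaged 4.99 CPM against 11.4 CPM in WT and fell by 1.15 on the log2 scale, Ccnd2 fell by 1.09 and Ccnd1, both D-type cyclins of G1, by 0.77. Mybl2, a transcription factor of S and G2 genes, rose by 0.61, Lin9, of the same activator complex, by 0.37 and Wee1, the kinase that restrains Cdk1, by 0.30 on the log2 scale. Of 7 CDK inhibitors, 4 rose and 1 fell over the whole Dnmt1 KO embryo, beside 18.8% and 17.9% of all genes. Within the 5 classes 3 of 29 pairs rose and 9 fell, beside 13.4% and 13.7% of all pairs. Over the whole embryo Cdkn1b had the smallest increase, at 0.42 on the log2 scale. Cdkn1c, an imprinted inhibitor, averaged 9.57 CPM in Dnmt1 KO against 318 CPM in WT, a log2 fold change of -4.99 ± 0.22 (SE; edgeR, adjusted p = 1.23e-10). Cdkn2a, Cdkn2b and Cdkn1a rose by 2.27, 2.23 and 1.52 on the log2 scale, to averages of 34.4, 1.47 and 38.6 CPM from 7.52, 0.336 and 14.1 CPM in WT. The changes of these 4 genes were larger than that of any of the 36 members. In whole Dnmt3b KO embryos, Cdkn1c rose by 0.62 (edgeR, adjusted p = 0.0376) and no other listed gene was called, beside 3.78% of all genes.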

How the data were processed

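The data were single-cell RNA-seq counts of 18 libraries from E8.5 mouse embryos, grouped by genotype as the labels give it. The deposited files hold raw UMI counts per gene and barcode, which the authors made with Cell Ranger on mm10. The file headers name version 3.1.0 in 17 libraries and 5.0.0 in 1, Dnmt3b KO 12, and in 4 libraries (Dnmt3b KO 11, WT 1, Dnmt3a KO 1 and 13) the reference held human genes beside the mouse genes, here called the combined reference.

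Cells with at least 1500 mouse UMIs, at most 30% mitochondrial and at most 35% ribosomal protein UMIs were kept, and Scrublet doublets were removed at 0.8% per 1000 cells. Up to 1500 cells per embryo were clustered with scanpy 1.11.5 (Python 3.11.15) on 2500 variable genes without the members, 50 principal components, 30 neighbours and Leiden resolution 2 (leidenalg 0.10.2), and clusters were named from marker lists. UMIs were summed per embryo, and per embryo and class where at least 25 cells were present in at least 3 samples of each group. Genes passing filterByExpr were tested in edgeR 4.0.16 (R 4.3.3) with TMM scaling, 1 quasi-likelihood fit of all groups and Benjamini-Hochberg adjustment over all genes, and a call was an adjusted p under 0.05. DESeq2 1.42.0 was an alternative. The edgeR and DESeq2 fits and the interaction fit in edgeR were checked on simulated summed counts. Levels are CPM, counts scaled to 1000000 mouse UMIs, with no length correction, so levels are not compared between genes. An embryo was called male above 10 CPM of Y-linked genes.

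Dnmt3b KO 1 and 2 share most barcodes and were summed as 1 sample. The other libraries are labelled as 1 embryo each, and p-values measure the spread between these samples. All 36 members are named. Values per sample were planned for members passing the study's rule over the whole embryo, or else the 3 with the smallest p for each knockout, and for the 3 called in the most classes, of which 4 tied. From the other lists up to 3 genes per direction were planned. The values given for further called members, Gins2 in classes and Cdkn1b were added after they were seen. The members and lists were chosen with earlier results of these data known. Promoters came from RefSeq (GRCm38.p6). The values of 1 further gene of the other lists are not reported here.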

Additional observations from a re-analysis of the deposited data

Results flagged for a closer look

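Of 72 groups of 4 to 10 samples tested over the 36 members (WT and Dnmt3a KO), 3 held an embryo far from the others, and chance gives about 1 in 20 groups. Cdc6 stood at 56.1 CPM in WT 2 and between 34.8 and 42.1 CPM in the other WT embryos. Bub1 stood at 56.2 CPM in WT 1 and between 75.4 and 88.7 CPM in the other WT embryos. Cenpe stood at 123 CPM in Dnmt3a KO 14 and between 82.6 and 89.3 CPM in the other Dnmt3a KO embryos.

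The effect of Dnmt1 KO differed between ExE mesoderm and ExE endoderm by the interaction test in edgeR for 13 members. The difference, as ExE mesoderm minus ExE endoderm on the log2 scale, was -0.35 for Bub1, -0.32 for Tpx2, -0.29 for Aurka, -0.36 for Ccna2, -0.32 for Cenpe, -0.29 for Cenpa, -0.38 for Cdt1, -0.51 for Cdc6, -0.32 for Top2a and -0.26 for Kif11. It was 0.27 for Tyms, 0.36 for Mcm7 and 0.20 for Gins2. Between endothelium and gut, as endothelium minus gut, it was 0.46 for Pcna, 0.64 for Mcm7, 1.58 for Ccne1, 0.64 for Rrm2, 0.37 for Mcm4 and -0.33 for Birc5.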

How the results depend on the processing

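Over the 8 members called in whole Dnmt1 KO embryos, 208 of 232 values under other settings kept direction and side of the threshold, 22 missed the threshold and 2 differed in size, Rrm2 at -0.85 and Ccne1 at -0.70 when classes were weighted by WT shares. Over the 24 member and class results followed, all of Rrm2, Ccne1, Cenpe, Cenpf or Gins2, 638 of 677 kept both and 39 missed the threshold. None of either kind changed sign. Both totals include leaving out each Dnmt3a KO and Dnmt3b KO sample, which could alter Dnmt1 KO against WT only through the shared fit. Where a class did not hold the library left out, the main result was counted again. The count of members called in whole Dnmt1 KO embryos, 8, was 5 with the term for male embryos and 5 to 9 when each library was left out. In classes the count of 55 was 24 with that term and 40 to 59 leaving out each library. It was 27 with at least 50 cells per class, where endothelium, gut and immune cells had too few embryos left to be tested. These 27 were the same 13 calls in ExE endoderm and 14 in ExE mesoderm. For Dnmt3a KO in classes the count of 0 was 1 without the low-count filter and 0 to 3 leaving out each library (3 without WT 1). For Dnmt3b KO in whole embryos the count of 0 was 1 with DESeq2, 1 with the male term and 0 to 6 leaving out each library. In classes the count of 2 was 10 with DESeq2, 4 with its size factors in edgeR, 5 without the filter, 6 with the male term, 4 with a term for the combined reference, 0 after thinning, 4 with doublets kept, 8 without the 3 shallowest libraries and 0 to 62 leaving out each library. Dnmt1 KO against Dnmt3a KO gave 12, 7 with the combined reference term and 6 to 13 leaving out each library. Dnmt1 KO against Dnmt3b KO gave 11 and 9 to 12. The difference between ExE mesoderm and ExE endoderm gave 13, 3 after thinning and 4 to 17 leaving out each library, and that between endothelium and gut gave 6, 10 without the filter and 4 to 7. The share of cells with 10 replication UMIs differed by -3.78 percentage points, by -0.95 without thinning, where most cells passed 10, and by -0.137 thinned to 1500 UMIs, where few could. The mean of replication UMIs per cell at 1500 UMIs was 2.04 to 2.14 in Dnmt1 KO and 2.27 to 2.61 in WT. ExE endoderm was lowest in WT for 21 to 23 members leaving out each library. The causes were not tested.

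Replicate numbers did not pair the samples, as the correlation of same-numbered samples ran from -0.25 to 0.20 over 13 pairs. With a replicate block the counts were 4 for whole Dnmt1 KO embryos, 41 for its classes, 0 for Dnmt3b KO classes, 5 against Dnmt3a KO and 2 against Dnmt3b KO. In these fits Dnmt3b KO 1 and 2 entered as separate samples, although they share most barcodes. A number found in only 1 library took a term of its own, so that library had no part in the group differences. This held for WT 4, 5, 6 and 7, Dnmt3a KO 13 and 14 and Dnmt3b KO 11 and 12. The planned test between erythroid cells and endothelium was not run, since 1 of 3 Dnmt1 KO embryos had 25 cells in both.

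In Dnmt1 KO, gut rests on 118 cells and endothelium on 235, and thinning to the smallest library gave 45 calls in classes.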
